A study of Mus musculus with 12 samples.

Results

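Sorted and unsorted BN1 cells were compared in normoxia, gene by gene, to describe what kind of cell the sort left behind. BN1 is a line from a murine hepatoblastoma (HB), the embryonal tumor of the liver, that arose in an FVB/N mouse after hydrodynamic delivery of mutant β-catenin and mutant NRF2 together with Crispr/Cas9 vectors against exon 2 of Cdkn2a. All 12 libraries of the series came from this line, share the label Cdkn2a KO, and carry EGFP under the Tie2 promoter, Tie2 being the protein of the Tek gene, in pooled G418-selected clones. Of the 12 libraries, 6 enter the comparison: 3 of unsorted cells in 21% oxygen (UN) and 3 of sorted cells in 21% oxygen (SN). The SN cells were those with the brightest EGFP after 48 h in 1% oxygen and had then been expanded for about 10 days in normoxia. The other 6 libraries, unsorted cells after 2 days in 1% oxygen (UH) and SN cells returned to 1% oxygen for 2 days (SH), shared in the estimate of the spread and gave the same contrast in hypoxia. Sorting, the earlier hypoxia and the regrowth cannot be told apart in SN cells. The description gives no number of sorts behind the SN libraries, which may all come from 1 sort. The study calls the libraries of a group independent replicas, but neither it nor the labels say that they came from separate cultures, so that p-values measure the spread between these libraries, which may be technical.

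The members were all genes with a mean of at least 0.1 TPM (a level corrected for transcript length and scaled to the same total in every library) over the 12 libraries, 18909 of the 45706 in the table. Differences are those of log2(TPM + 1), tested with limma. To be called, a gene had to differ by more than 1 on this scale, up or down, with an adjusted p (Benjamini-Hochberg) below 0.05. Of the genes tested, 606 (3.20%) were higher and 1431 (7.57%) were lower in SN cells, against a median log2 difference of -0.06 over all genes. Counts of called members within lists are to be read beside these shares. Quantile normalization, which moved that median to 0.05, gave 842 higher and 1144 lower, so that higher genes made up 42.4% of those called instead of 29.7%. The 3 SN libraries lay wholly above or below the 3 UN libraries for 49.0% of all genes tested. The depth of the libraries is unknown.

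UN1 stood apart from the other unsorted libraries. Its correlation with UN2 and UN3 across genes was 0.978 and 0.977, against 0.990 between UN2 and UN3, and it was closer to the SN libraries than they were (0.952 against 0.938 to 0.943). Among the 1431 genes lower in SN cells, UN1 was the lowest of the 3 UN libraries for 1063 (74.3%), and among the 606 higher genes it was the highest of them for 434 (71.6%). Without UN1, 744 genes were higher and 1714 lower. Several collagen and smooth muscle genes were exceptions, with UN1 the highest of the UN libraries. Mitochondrially encoded RNA made up 6.10% ± 1.27 of TPM in UN cells, with UN1 at 7.55%, and 8.10% ± 0.397 in SN cells (SD, n = 3). The part of this share in the results was not tested.

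Fibrillar collagen is made by mesenchymal cells, in which chains are hydroxylated and folded in the endoplasmic reticulum by dedicated chaperones and crosslinked by lysyl oxidases outside the cell. Hepatocytes are known for plasma proteins and make little of it, whereas endothelial cells are known by junctional cadherins, PECAM and the VEGF and angiopoietin receptors. Tumor lines often keep parts of several such programs at the same time. Bulk RNA cannot tell fewer cells that express a gene from less of its RNA in each cell.

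The regions before the start of 4 genes are shown first, because they belong to the gene behind the sort and to leading genes of both directions. They are the 250 bases ahead of the RefSeq start (RefSeq, GRCm38.p6, 5′ to 3′). The genes are Tek, whose promoter drove the EGFP of the sort, and Col3a1, which fell most on the log2(TPM + 1) scale. The others are Slco4a1 and Sprr2k, which were among the genes that rose most. Capitals mark matches on either strand to the TATA box (searched as TATAAA), the CCAAT box, the AP-1 motif (searched as TGANTCA), the TEAD motif (searched as GGAATG) and an E-box (searched as CAGGTG).
Tek, chr4:94739039-94739288, strand +: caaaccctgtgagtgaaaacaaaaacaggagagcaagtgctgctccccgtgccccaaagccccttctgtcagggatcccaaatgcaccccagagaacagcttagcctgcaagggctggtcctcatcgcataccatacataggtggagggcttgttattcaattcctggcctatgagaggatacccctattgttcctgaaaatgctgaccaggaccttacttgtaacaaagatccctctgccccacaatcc
Col3a1, chr1:45311288-45311537, strand +: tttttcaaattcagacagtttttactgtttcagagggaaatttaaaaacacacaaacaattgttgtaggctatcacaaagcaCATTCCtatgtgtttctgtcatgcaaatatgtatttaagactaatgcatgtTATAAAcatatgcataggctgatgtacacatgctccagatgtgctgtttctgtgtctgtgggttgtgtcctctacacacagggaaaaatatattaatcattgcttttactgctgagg
Slco4a1, chr2:180455995-180456244, strand +: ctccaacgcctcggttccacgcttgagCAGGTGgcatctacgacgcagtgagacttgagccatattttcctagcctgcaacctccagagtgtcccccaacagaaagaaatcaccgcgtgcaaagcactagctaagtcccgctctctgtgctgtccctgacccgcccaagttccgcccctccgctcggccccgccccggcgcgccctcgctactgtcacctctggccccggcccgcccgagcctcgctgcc
Sprr2k, chr3:92432332-92432581, strand +: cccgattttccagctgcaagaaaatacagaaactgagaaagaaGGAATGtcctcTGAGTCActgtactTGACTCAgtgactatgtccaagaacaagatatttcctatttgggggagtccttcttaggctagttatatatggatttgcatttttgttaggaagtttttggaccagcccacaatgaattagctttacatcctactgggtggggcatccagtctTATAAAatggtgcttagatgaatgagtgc
The Tek window held none of the 5 motifs, that of Slco4a1 held 1, that of Col3a1 held 2, and that of Sprr2k held 4, among them 2 copies of the AP-1 motif, which reads the same on both strands. Of the 15 genes that fell most, 10 were in the promoter table, and the TATA box was found before 2 of them, the CCAAT box before 3, the TEAD motif before 2, the E-box before 2 and the AP-1 motif before 0. Over the windows of the same length of all 27025 genes in the table, these motifs were found in 13.0%, 34.5%, 12.6%, 17.1% and 6.9% in that order. Before the 12 matched genes of the 15 that rose most, the AP-1 motif was found for 2 (Gstp2 and Sprr2k), the E-box for 4, the CCAAT box for 4, the TEAD motif for 2 and the TATA box for 1.

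The genes behind the line and the sort came first. Tek (chr4:94739289-94874976 in GRCm38) was listed at 0.133, 0.124 and 0.141 TPM in UN cells and at 2.69, 2.70 and 2.07 TPM in SN cells, a log2 difference of 1.62 ± 0.121 (SE, limma adjusted p = 1.80e-06). The groups did not overlap, but the cells had been selected through the promoter of this gene, so that its rise is no independent observation. Cdkn2a (chr4:89274471-89294653), which encodes the cell cycle inhibitors p16INK4A and p19ARF, was at 196, 327 and 272 TPM in UN cells and at 12.6, 10.4 and 16.5 TPM in SN cells. That fall of 4.22 ± 0.192 on the log2 scale (limma adjusted p = 3.04e-08) separated the groups fully, although both carry the label of a knockout. A level over the whole gene does not show an edit within exon 2, so it does not check that label. Cdkn2b, its neighbour and also a cell cycle inhibitor, fell by 1.06, and Mtap, which flanks them, had a log2 difference of -0.63 and was not called. Of the 21 other genes tested within 1 Mb of Cdkn2a, 2 were called, both lower, and their median log2 difference was -0.12. Ctnnb1, which encodes β-catenin, averaged 431 TPM in UN and 537 TPM in SN cells, Nfe2l2, which encodes NRF2, 110.0 and 130.2 TPM. Yap1, a growth regulator of the Hippo pathway, had a log2 difference of -0.08, which was 0.04 with median-of-ratios scaling. None of the 3 was called. Levels over whole genes do not separate the delivered mutant drivers from the endogenous genes, and EGFP was not analysed here. Trp53, which encodes p53, rose from 162 ± 22.1 TPM to 351 ± 59.2 TPM (SD, n = 3), by 1.11 ± 0.167 on the log2 scale (limma adjusted p = 0.000393), a call lost without SN2 or UN3, at 0.99 in both.

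On the log2(TPM + 1) scale, fibrillar collagens and the proteins that mature them were among the largest falls in sorted cells. With SN levels near 0, this scale ranks genes abundant in UN cells first. As a ratio of mean TPM, UN to SN, Nid2 fell more (1807) than Col3a1 (664). Of 24 tested matrix proteins 15 fell and 0 rose, with a median log2 difference of -1.34. Col3a1, a fibrillar collagen chain, was at 1960, 222 and 173 TPM in UN cells and at 1.04, 0.856 and 1.65 TPM in SN cells, and fell by 7.62 ± 0.689 on the log2 scale (limma adjusted p = 8.46e-06). Col1a2, a chain of type I collagen, went from 664, 145 and 126 TPM to 0.375, 0.198 and 0.366 TPM. Its partner Col1a1 went from 1186, 499 and 428 TPM to 5.65, 6.71 and 7.62 TPM. The UN libraries spread widely for these chains, with UN1 the highest library, yet the lowest UN value of each was above every SN value. Postn, a matricellular protein, was at 191, 296 and 299.8 TPM against 3.35, 3.59 and 7.06 TPM. Sparc, a collagen-binding matrix protein, dropped less steeply, from means of 3121 TPM to 589 TPM. Bgn, a small proteoglycan, averaged 519 TPM in UN cells and 17.7 TPM in SN cells, with UN1 at 1126 TPM.

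Not all matrix genes were lower. Fn1, which encodes fibronectin, was at 1912, 2408 and 2358 TPM in UN cells and at 2396, 2304 and 2127 TPM in SN cells, with a log2 difference of 0.04. The basement membrane collagens Col4a1 and Col4a2 had log2 differences of 0.56 and 0.61 and were not called. The listed matrix proteins together made up 1.18% ± 0.152 of all TPM in UN cells and 0.472% ± 0.00750 in SN cells (SD, n = 3). An exact two-sided permutation test of 3 libraries against 3 cannot go below p = 0.1, and this difference reached that value.

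The collagen folding and crosslinking list had 10 of 20 members lower and 0 higher (median -0.99). Serpinh1 (chr7:99345376-99353239), which encodes the collagen chaperone HSP47, was at 461, 726 and 640.3 TPM in UN cells and at 1.69, 1.56 and 3.14 TPM in SN cells. The groups lay far apart, and the fall of 7.62 ± 0.208 (limma adjusted p = 1.02e-09) was as large as that of Col3a1 with a smaller error. Fkbp10, a prolyl isomerase that acts on procollagen, was at 146, 312 and 259.9 TPM against 0.515, 1.12 and 2.11 TPM. Lox, the lysyl oxidase that crosslinks collagen, was at 145, 128 and 128 TPM against 0.176, 0.112 and 0.123 TPM. Loxl2, of the same enzyme family, went from a mean of 33.8 TPM to 0.317 TPM. The other 10 members were not called. Among them, Ppib, a prolyl isomerase, averaged 781 and 676 TPM, and the prolyl hydroxylase subunit P4ha1 64.6 and 68.0 TPM, in UN and SN cells. Rcn3, a calcium-binding protein of the endoplasmic reticulum that was in no list, was among the 15 genes that fell most, from 315, 636 and 519.8 TPM to 1.83, 1.36 and 2.63 TPM.

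**Figure D1:**
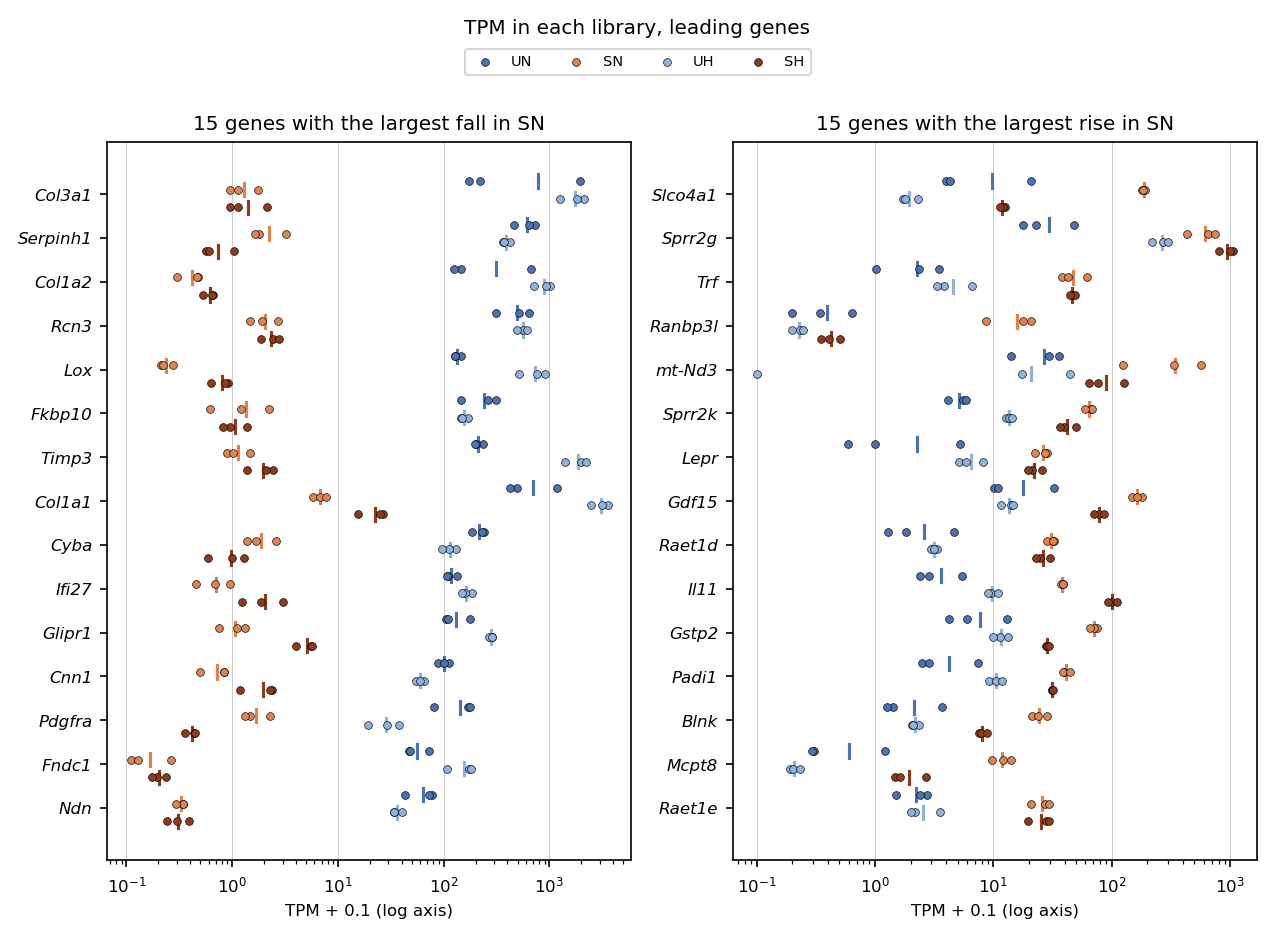
TPM + 0.1 on a log axis for the 15 genes with the largest fall (left) and the largest rise (right) in SN against UN cells, with 1 point per library and a vertical bar at the mean of the 3. In normoxia no SN point overlaps a UN point for any of the 30 genes, because the rule that chose them required it, and the hypoxic libraries UH and SH are drawn for comparison.

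The contractile apparatus of smooth muscle and pericytes fell alongside, with 8 of 16 list members lower and 0 higher (median -0.94). Cnn1, which encodes calponin, was at 89.1, 113 and 100.2 TPM in UN cells and at 0.728, 0.735 and 0.395 TPM in SN cells, a fall of 5.97 ± 0.181 (limma adjusted p = 1.75e-09). Myl9, a regulatory myosin light chain, was at 123, 55.5 and 52.5 TPM against 0.429, 0.454 and 0.467 TPM. Tpm2, a tropomyosin, was at 149, 30.0 and 26.1 TPM against 0.233, 0.197 and 0.197 TPM. In both, UN1 was the highest library. Acta2, smooth muscle actin, fell by 3.20 but kept a mean of 30.5 TPM in SN cells. Tpm1, another tropomyosin, averaged 1636 and 1650 TPM and was not called.

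Of 19 mesenchymal factors and markers 5 fell (26.3%) and 1 rose (5.26%), against 7.57% and 3.20% of all genes tested. Pdgfra, a platelet-derived growth factor receptor of fibroblasts, was at 80.4, 168 and 176 TPM in UN cells and at 1.38, 1.21 and 2.17 TPM in SN cells (log2 -5.72 ± 0.301, limma adjusted p = 1.07e-07). Snai1, a repressor of epithelial genes, went from 44.0, 35.9 and 36.6 TPM to 0.611, 0.755 and 0.708 TPM. Prrx1, a mesenchymal homeodomain factor, went from 61.9, 9.99 and 9.99 TPM to 0.0374, 0.175 and 0.156 TPM. Other factors of this kind were not called. Vim, which encodes vimentin, averaged 1396 and 1106 TPM, Twist1 16.0 and 16.9 TPM, Snai2 45.3 and 35.1 TPM, and Zeb1 28.0 and 55.4 TPM. With median-of-ratios scaling or without UN1, 3 members of the list rose. S100a4, a calcium-binding protein used as a fibroblast marker, went the other way, from 2192, 742 and 625 TPM to 5881, 6018 and 4779 TPM (log2 2.46 ± 0.392, limma adjusted p = 0.000563). With it, the summed share of the list went against the count, from 0.323% ± 0.0965 of TPM in UN to 0.712% ± 0.0696 in SN cells (SD, n = 3), with no overlap.

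Epithelial genes moved in both directions. Cdh1, E-cadherin, was at 5.81, 10.3 and 11.1 TPM in UN cells and at 0.573, 0.528 and 0.488 TPM in SN cells, a fall of 2.68 ± 0.196 (limma adjusted p = 1.51e-06). The desmosomal cadherin Dsg2 fell by 2.83, to a mean of 0.0438 TPM. Epcam, an epithelial adhesion molecule, was under 0.5 TPM in every library, at a highest value of 0.310 TPM. Several tight junction and polarity genes rose. Cldn1, a claudin, went from a mean of 11.8 TPM to 46.9 TPM, Crb3, an apical polarity protein, from 3.33 TPM to 15.7 TPM, and Cgn, which encodes cingulin, from 5.05 TPM to 19.5 TPM. In all, 4 of 18 tested junction genes rose (22.2%) and 3 fell (16.7%), against 3.20% and 7.57% of all genes tested. Among the simple epithelial keratins, Krt19 went from 29.4, 83.4 and 73.2 TPM to 0.714, 0.438 and 1.36 TPM, and Krt8 from 33.7, 77.9 and 84.9 TPM to 5.72, 4.41 and 4.20 TPM. Krt18, the usual partner of Krt8, averaged 93.4 and 126 TPM and was not called. Krt7 rose by 1.12 from a mean of 2.07 TPM to 5.48 TPM, a call lost without SN2 (0.98) or UN3 (0.90).

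Integrins and laminins moved in both directions, with 4 of 28 higher and 7 lower. Lama4, a laminin chain of vessel and muscle basement membranes, was at 36.9, 48.6 and 49.1 TPM in UN cells and at 0.0304, 0.0629 and 0.184 TPM in SN cells (log2 -5.38 ± 0.202, limma adjusted p = 7.11e-09). Nid1 and Nid2, the nidogens that link laminin to collagen IV, fell from means of 57.6 and 14.8 TPM to 0.711 and 0.00819 TPM. Lama5 and the integrin chains Itga2, Itga3 and Itgb3 were the members that rose, by 1.33, 1.45, 1.23 and 1.43. Among metalloproteinases and their inhibitors 4 rose and 6 fell of 22. The inhibitor Timp3 was at 236, 202 and 196 TPM against 0.798, 0.908 and 1.37 TPM, one of the 15 largest falls. The gelatinases moved apart, Mmp9 rising from a mean of 28.2 TPM to 119 TPM and Mmp2 falling from 27.3 TPM to 3.93 TPM. Plau, the urokinase plasminogen activator, and its receptor Plaur rose by 1.23 and 1.80.

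**Figure D2:**
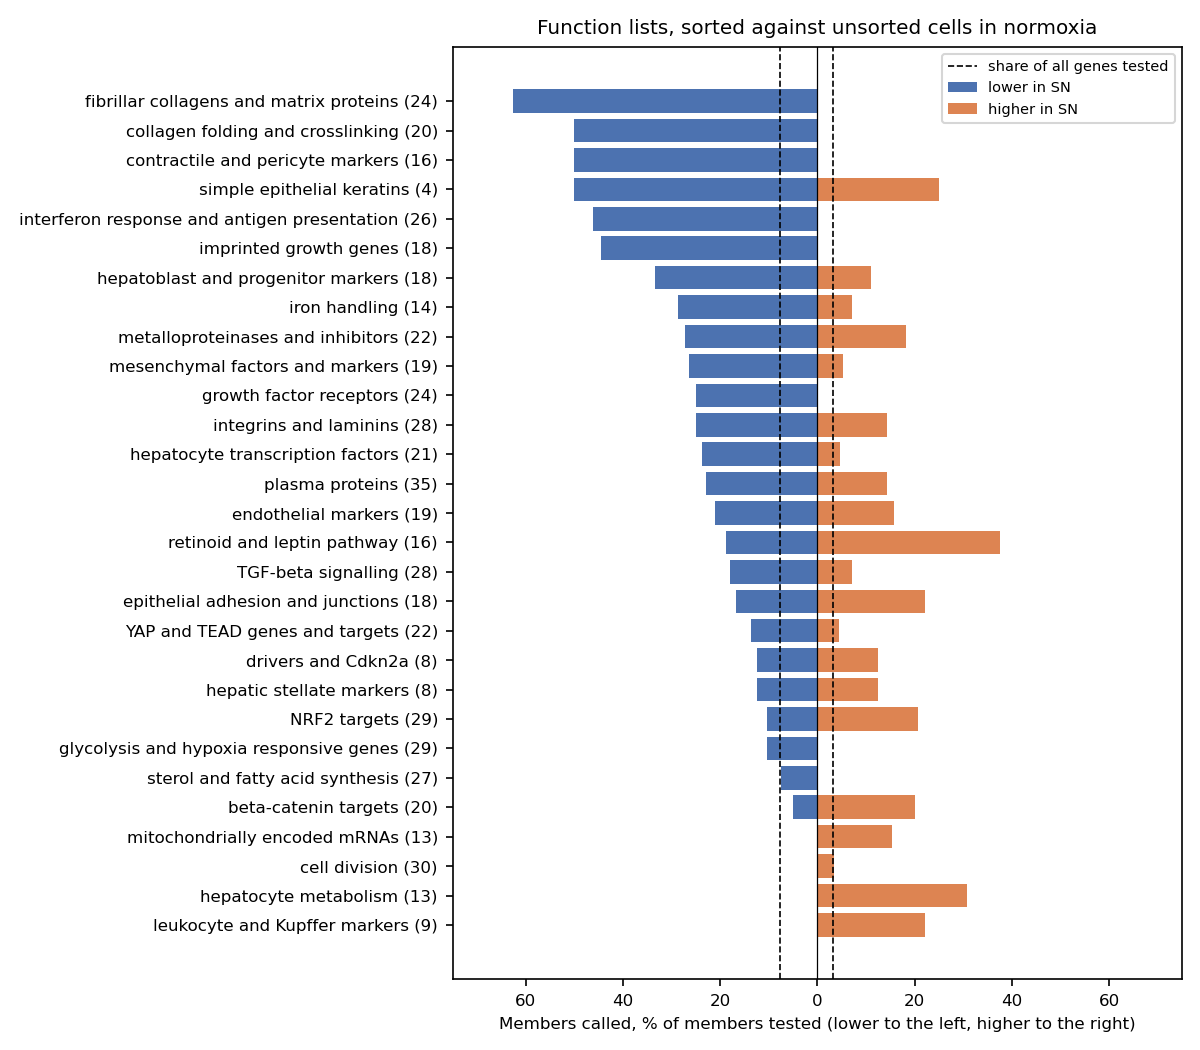
Members called higher (right) or lower (left) in SN against UN cells as a percentage of the members tested, for 29 lists with the number tested in brackets, and dashed lines at the shares over all genes tested (3.20% higher, 7.57% lower). Matrix proteins reach 62.5% lower with none higher, and the retinoid and leptin list 37.5% higher.

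The label of the cells, immortalized hepatoblastoma cells, was set against liver genes. Most hepatocyte genes were near 0 in both groups. Alb, serum albumin, was at 2.07, 2.16 and 3.30 TPM in UN cells and at 0.636, 0 and 0 TPM in SN cells, Ttr, transthyretin, reached at most 0.474 TPM in any library, and Apoa1, an apolipoprotein, averaged 0.286 and 0.132 TPM. Of 46 plasma protein genes, 26 averaged under 1 TPM in both groups, and of 30 hepatocyte metabolic genes 22 did. Of the 13 metabolic genes tested, however, 4 rose and 0 fell (median 0.55), or 2 rose with a filter at a mean of 1 TPM. Ass1, an enzyme of the urea cycle, was at 40.1, 29.7 and 24.3 TPM in UN cells and at 77.9, 79.2 and 112 TPM in SN cells. Ugt1a1, which conjugates bilirubin, was at 2.09, 1.67 and 1.37 TPM against 8.79, 9.70 and 6.60 TPM, and Abcc2 and Ces1d, a canalicular exporter and a carboxylesterase, rose from means under 1 TPM. The SN libraries of all 4 lay above the UN libraries, and the list made up 0.0179% ± 0.000503 of TPM in UN and 0.0297% ± 0.00281 in SN cells (SD, n = 3). Hnf4a, the hepatocyte nuclear factor, was at 1.70, 4.86 and 4.98 TPM in UN cells and at 0.429, 0.203 and 0.159 TPM in SN cells, a fall of 1.86 ± 0.249 (limma adjusted p = 0.000168). In all, 5 of 21 liver transcription factors fell (23.8%) and 1 rose (4.76%), against 7.57% and 3.20% of all genes tested. Foxa2, Cebpa, Onecut2 and Nr5a2 were the others that fell, and Nr2f1 the 1 that rose. The count of those that fell was 2 with quantile normalization, 3 without UN3 and 8 with a pseudocount of 0.1. Plasma proteins that were expressed at all changed in both directions, with 8 of 35 lower (22.9%) and 5 higher (14.3%). The summed share of the plasma protein list rose. It was 0.388% ± 0.0988 of TPM in UN and 0.546% ± 0.0314 in SN cells (SD, n = 3), with no overlap. Gc, the vitamin D-binding protein, fell from 175, 335 and 357 TPM to 27.5, 25.7 and 19.7 TPM, and Apob and the complement factor Cfb fell with it. Trf, the iron carrier transferrin, rose from 3.36, 0.921 and 2.24 TPM to 37.9, 42.4 and 61.4 TPM, a log2 difference of 3.97 ± 0.294 (limma adjusted p = 1.70e-06). Rbp4, the plasma carrier of retinol, rose by 1.75, Lcn2, lipocalin, by 1.01, and Hp, haptoglobin, by 1.24.

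Genes of the hepatoblast and of fetal growth divided. Afp, the alpha-fetoprotein of fetal liver and HB, rose from 1.43, 2.34 and 1.71 TPM to 8.14, 9.65 and 9.80 TPM (log2 1.86 ± 0.223, limma adjusted p = 7.74e-05), still a low level. Dlk1, a surface marker of hepatoblasts, fell from 13.5, 83.8 and 78.7 TPM to 0.270, 0.301 and 0.596 TPM. Igf2, the fetal growth factor, fell from 67.4, 114 and 106 TPM to 2.82, 2.66 and 5.22 TPM. Prom1, a progenitor surface marker, rose by 2.47 and Tm4sf4 fell by 4.14. In all, 2 of 18 rose (11.1%) and 6 fell (33.3%), against 3.20% and 7.57% of all genes tested. The summed share of the list went against the count. It was 0.393% ± 0.0191 of TPM in UN and 0.558% ± 0.0328 in SN cells (SD, n = 3), with no overlap. Sox9 and Spp1, of biliary and progenitor cells, averaged 33.4 and 41.6 TPM and 2832 and 4485 TPM, and neither was called.

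Dlk1 and Igf2 are imprinted, and the imprinted list had 8 of 18 lower (44.4%) and 0 higher, against 7.57% and 3.20% of all genes tested. Ndn, a growth suppressor of the necdin family, was at 43.1, 76.8 and 73.1 TPM in UN cells and at 0.239, 0.246 and 0.194 TPM in SN cells (log2 -5.69 ± 0.197, limma adjusted p = 3.97e-09). Grb10, an adaptor that restrains insulin and IGF receptors, went from 42.3, 39.0 and 38.5 TPM to 0.0779, 0.0940 and 0.0907 TPM. Other imprinted genes were not called. Peg3 averaged 79.0 and 124 TPM and Igf2r 25.3 and 30.2 TPM, and neither was called.

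The Tie2 reporter marks a gene of endothelial cells, so that other genes of those cells were read. Of 36 endothelial genes, 22 averaged under 1 TPM in both UN and SN cells and 17 were too low to be tested. Pecam1 and Kdr, a junctional molecule and the main VEGF receptor of endothelial cells, averaged 0.0669 and 0.102 TPM in SN cells, and Cdh5, their defining cadherin, did not exceed 0.0967 TPM in any library. Etv2, a master regulator of the lineage, was listed at 0 in every library. Of the 19 tested genes, 3 rose (5 with quantile normalization) and 4 fell. These were 15.8% and 21.1%, against 3.20% and 7.57% of all genes tested. Apart from Tek, Angpt2, a Tie2 ligand, went from 1.80, 1.44 and 0.931 TPM to 3.99, 5.46 and 4.89 TPM, and Plvap, a protein of endothelial diaphragms, from 0.244, 0.0383 and 0.185 TPM to 1.03, 1.39 and 1.61 TPM. The call for Plvap was lost when SN2, SN3 or UN2 was left out, at log2 differences of 0.93 to 1.00. The opposing ligand Angpt1 fell from 6.92, 19.8 and 20.5 TPM to 1.98, 1.71 and 3.35 TPM. Eng, the TGF-β co-receptor endoglin, fell from 41.4, 8.88 and 8.67 TPM to 1.16, 1.20 and 1.07 TPM, and the sphingosine receptor S1pr1 and the secreted Egfl7 fell by 2.86 and 1.97. Flt4, Flt1, Gata2, Esam, Stab1, Ets1 and Fli1 were at 1 TPM or more in a group and were not called, with log2 differences from -0.93 for Stab1 to 0.84 for Gata2. The list also holds the ligands Angpt1 and Angpt2, so that its sum is no measure of an endothelial program. Summed, its members made up 0.0157% ± 0.00109 of TPM in UN cells and 0.00879% ± 0.000433 in SN cells (SD, n = 3), with no overlap. This fall was carried by S1pr1 (means of 39.8 and 4.21 TPM), Eng (19.6 and 1.14), Angpt1 (15.8 and 2.34) and Egfl7 (10.4 and 1.91). It does not speak for Pecam1, Kdr and Cdh5, which were near 0. In hypoxia the shares overlapped, at 0.0155% to 0.0200% in UH and 0.0144% to 0.0181% in SH cells.

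Some defining markers of leukocytes, Kupffer cells and hepatic stellate cells were at or near 0, whereas other genes of the same lists were expressed. Ptprc, the pan-leukocyte CD45, reached at most 0.121 TPM, and Adgre1 and Clec4f, of Kupffer cells, at most 0.0208 and 0 TPM. Cd14 and Cd68 rose, by 1.80 and 1.10, and were the 2 of 9 tested leukocyte genes that did, the call for Cd68 being lost without SN3 (0.91). Cd14 was at 107, 81.4 and 84.3 TPM in UN and at 294, 329 and 330.1 TPM in SN cells, beside the low Ptprc. Of 8 tested hepatic stellate genes, Hand2 fell by 2.91 and Ngfr rose by 1.77, and Lrat, the retinol esterifying enzyme that defines these cells, was at 0 throughout. Of the 10 listed stellate genes, however, 5 averaged 1 TPM or more in UN cells and 4 in SN cells. Summed, they made up 0.0177% ± 0.00470 of TPM in UN and 0.0236% ± 0.00166 in SN cells (SD, n = 3), with overlap.

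**Figure D3:**
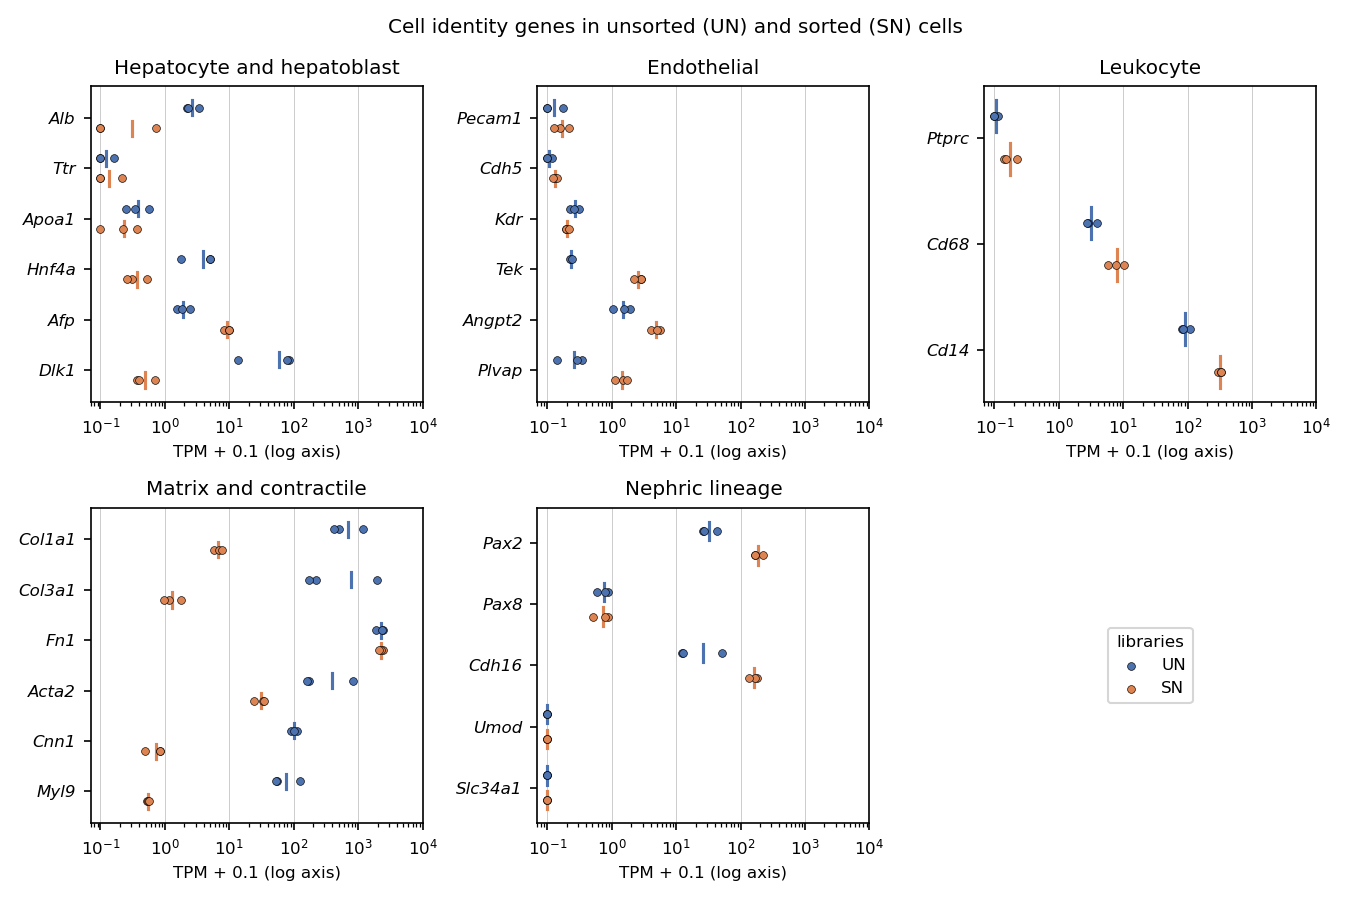
TPM + 0.1 on a log axis for genes that mark 5 kinds of cells, with 1 point per UN or SN library and a vertical bar at the mean. Ttr, Pecam1, Cdh5, Ptprc, Umod and Slc34a1 lie at or near the left edge in SN cells, whereas Fn1 lies between 1912 and 2408 TPM in both groups, and Pax2 and Cdh16 reach 220.5 and 181 TPM in SN cells.

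Genes of the nephric lineage, the embryonic tissue that forms kidney and urogenital ducts, were present in both groups and were looked up after their values had been seen, so that the list carries no test of its own. Pax2, the paired-box factor of that lineage, was at 43.4, 26.1 and 26.7 TPM in UN cells and at 166, 220.5 and 168 TPM in SN cells, a rise of 2.52 ± 0.215 (limma adjusted p = 5.22e-06). Cdh16, kidney-specific cadherin, was at 51.6, 12.2 and 12.7 TPM against 181, 164 and 135 TPM. Havcr1, a surface protein of injured renal tubules, was at means of 3.02 and 14 TPM. These 3 of 20 tested genes rose, and Gata3 fell by 1.01, a call lost with median-of-ratios scaling or quantile normalization. Wt1, Emx2, Sall1 and Osr1 were between 8.38 and 29.5 TPM on average in both groups. Among genes of mature renal segments, Umod was at 0 in every library, and Slc34a1, Slc12a3 and Aqp2 did not exceed 0.0986 TPM. No cell type is named from these values.

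The rise in sorted cells was smaller in number and in size than the loss. A log2 difference beyond 4 was reached by 88 genes that fell and by 2 that rose. Slco4a1 (chr2:180456245-180474867), an organic anion transporter, was at 20.8, 3.87 and 4.24 TPM in UN cells and at 192, 182 and 185 TPM in SN cells, a difference of 4.51 ± 0.429 (limma adjusted p = 1.27e-05). Sprr2g belongs to the small proline-rich proteins of the cornified envelope of squamous cells, and GENCODE M21 lists it as a polymorphic pseudogene. It was at 47.7, 17.9 and 22.8 TPM against 436, 655 and 750.2 TPM. In both genes the sorted libraries were far above the highest UN library, which was UN1. The other genes of the 15 with the largest rise were Trf, Ranbp3l, mt-Nd3, Sprr2k, Lepr, Gdf15, Raet1d, Il11, Gstp2, Padi1, Blnk, Mcpt8 and Raet1e, with log2 differences from 3.97 for Trf to 3.12 for Raet1e. Sprr2g and Sprr2k, Raet1d and Raet1e, and Gstp2 with Gstp1 are near-identical copies within their families, between which reads may have been split uncertainly.

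Secreted and stress signals stood among them. Gdf15, a cytokine of cell stress, was at 32.5, 9.95 and 10.8 TPM in UN cells and at 181, 149 and 165 TPM in SN cells. Il11, a cytokine of the interleukin-6 family, was at 5.38, 2.76 and 2.31 TPM against 38.9, 37.2 and 38.5 TPM (log2 difference 3.19, limma adjusted p = 4.64e-07). Raet1d and Raet1e encode ligands of the activating receptor NKG2D on natural killer cells, and went from means of 2.51 and 2.12 TPM to 30.7 and 25.9 TPM. Mcpt8, a protease of the mast cell chymase family, and Blnk, a B cell adaptor, went from means of 0.506 and 2.04 TPM to 11.9 and 24.3 TPM, in cells without Ptprc.

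Squamous genes were examined as a group after their values had been seen. Of 17 cornified envelope genes, 6 rose and 3 fell. Ivl, which encodes involucrin, rose from 1.03, 1.49 and 0.857 TPM to 16.4, 13.4 and 22.2 TPM (log2 3.09 ± 0.199, limma adjusted p = 5.52e-07), and Sprr1b and Lce1g by 2.03 and 2.77. Sprr3, Sprr2a2 and Sprr2a3 of the same cluster on chromosome 3 fell, Sprr3 from a mean of 6.27 TPM to 0.646 TPM, and Sprr2a2 and Sprr2a3 are again near-identical copies. Sprr1a was already abundant at 1996 TPM in UN cells, averaged 2860 TPM in SN cells and was not called. Padi1, on chromosome 4, which encodes an enzyme that citrullinates proteins in skin, rose by 3.14, and 6 of 32 tested genes within 1 Mb of it, among them Padi2 and Padi3, were higher as well.

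In the retinoid and leptin list 6 of 16 members rose (37.5%) and 3 fell (18.8%), against 3.20% and 7.57% of all genes tested. Like the other lists it was chosen with earlier results of these data known, so that its share carries no test of its own. Stra6, the cell surface receptor for retinol-binding protein, was at 20.2, 18.8 and 18.6 TPM in UN cells and at 142, 159 and 128 TPM in SN cells (log2 2.83 ± 0.218, limma adjusted p = 2.34e-06). Aldh1a1, which makes retinoic acid, rose by 2.49, with SN libraries at 307, 281 and 214 TPM. Lepr, the leptin receptor, was at 5.12, 0.898 and 0.487 TPM against 28.6, 22.3 and 27.0 TPM. Ptgds, a prostaglandin synthase that also binds retinoids, rose from 45.7, 9.61 and 9.72 TPM to 122, 111 and 133 TPM. Crabp1, a cellular binder of retinoic acid, fell from a mean of 9.34 TPM to 1.70 TPM. The retinoic acid receptors Rara and Rarg were not called, at log2 differences of -0.10 and 0.27.

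Targets of both drivers and of YAP, which was not delivered to this line, were read beside the shares over all genes tested, 3.20% higher and 7.57% lower. Of 20 β-catenin targets, 4 rose and 1 fell. Lef1, a nuclear partner of β-catenin, rose from 5.90, 4.85 and 3.51 TPM to 12, 19.8 and 19.5 TPM, and Ccnd1, which encodes cyclin D1, from 186, 152 and 153 TPM to 519, 533 and 350.5 TPM. Rnf43, a feedback inhibitor of Wnt receptors, fell from 3.97, 10.3 and 9.54 TPM to 0.175, 0.0572 and 0.113 TPM, whereas the feedback genes Axin2 and Notum were not called. Dkk3, a secreted protein of the Dickkopf family, was called higher although the groups overlapped, with UN1 at 9.50 TPM within the SN range of 8.37 to 9.94 TPM. That call was lost without any single library other than UN1, without the filter on low values, and in a fit of the SN and UN libraries alone. Of 29 NRF2 targets, 6 rose (20.7%) and 3 fell (10.3%, and 5 without UN1). The subunits of the enzyme that limits glutathione synthesis moved apart, Gclc rising by 1.08 and Gclm falling by 1.42, and the classical target Nqo1 was low in both groups (1.68 and 0.426 TPM). Aldh3a1, an aldehyde dehydrogenase, rose from 19, 42.4 and 41.2 TPM to 92.7, 86.4 and 179.9 TPM, and Abcc3, a conjugate exporter, fell by 2.28. Of 22 YAP and TEAD genes and targets, 1 rose (4.55%) and 3 fell (13.6%). Ankrd1 was at 265, 246 and 264 TPM against 668, 626 and 718 TPM, while Ctgf, the other best known YAP target, was at 209.7, 181 and 176 TPM against 72, 69.4 and 68.7 TPM.

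In the TGF-β list 5 of 28 genes fell (8 without UN1) and 2 rose (4 with median-of-ratios scaling or quantile normalization). These were 17.9% and 7.14% of the list, against 7.57% and 3.20% of all genes tested. The ligands Tgfb2 and Tgfb3 fell by 1.56 and 1.98, the receptor Tgfbr1 by 1.45 and the binding protein Ltbp4 by 2.56, while the ligand Tgfb1 had a log2 difference of 0.56 and was not called. Grem1, a secreted antagonist of bone morphogenetic proteins, rose from 14.4, 7.07 and 6.44 TPM to 51.0, 50.6 and 58.9 TPM, and Bmp4, one of its ligands, fell by 1.48. Among growth factor receptors 6 of 24 fell and 0 rose. Besides Pdgfra these were Fgfr2, Fgfr4, Ntrk3, Ephb2 and Ror2, and Ror2, a Wnt5a receptor, went from 4.75, 9.22 and 7.60 TPM to 0.0501, 0.0967 and 0.0466 TPM. Egfr, Met and Igf1r were not called.

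Of 26 interferon and antigen presentation genes, 12 fell (46.2%) and 0 rose (median -0.92), with 7 lower under quantile normalization. Of all genes tested 7.57% fell and 3.20% rose. Ifi27, an interferon-induced mitochondrial protein, was at 133, 109 and 107 TPM in UN cells and at 0.355, 0.595 and 0.853 TPM in SN cells, a fall of 6.20 ± 0.207 (limma adjusted p = 2.81e-09). Isg15, a ubiquitin-like modifier, went from 32.1, 15.5 and 13.0 TPM to 4.17, 4.08 and 3.48 TPM. B2m, the light chain of class I molecules, averaged 1862 and 1774 TPM and was not called, and the heavy chains H2-K1 and H2-D1 had log2 differences of -0.70 and -0.64.

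Cell division and sterol synthesis had shares of called members near or below those of all genes tested, 3.20% higher and 7.57% lower. Of 30 cell division genes 1 rose, the replication helicase subunit Mcm4, by 1.10, and 0 fell. Of 27 genes of sterol and fatty acid synthesis, 2 fell (Scd1 and Pmvk), Pmvk losing its call with median-of-ratios scaling (-0.95) and without UN2 (-0.91). Of 29 glycolytic and hypoxia responsive genes, 3 fell (10.3%) and 0 rose, with a median log2 difference of 0.12. The summed share of this list went the other way, from 1.10% ± 0.0230 of TPM in UN to 1.52% ± 0.270 in SN cells (SD, n = 3), with no overlap. Egln3, an oxygen-sensing hydroxylase, Mt2, a metallothionein, and Slc16a3, a lactate exporter, fell by 2.26, 2.76 and 1.41, the last from a mean of 3.24 TPM to 0.423 TPM and not called without UN1 (-0.94). Of 14 iron genes, Trf rose and 4 fell (28.6%). The summed share of the iron list nevertheless rose, from 0.817% ± 0.0604 of TPM in UN to 1.33% ± 0.0944 in SN cells, with no overlap. Tfr2, a transferrin sensor of hepatocytes, fell from 1.68, 1.76 and 2.38 TPM to 0, 0.0138 and 0 TPM. The ferritin chains Fth1 and Ftl1 averaged 5457 and 9190 TPM and 1853 and 2968 TPM, and were not called. Of 13 mitochondrially encoded mRNAs, mt-Nd3 and mt-Co2 rose (15.4%). Their SN libraries spread from 124 to 573 TPM for mt-Nd3 and from 1368 to 5096 TPM for mt-Co2. Both calls were lost in a fit without a filter on low values and when SN2, SN3, UN2 or UN3 was left out.

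Some genes went from clear expression to almost none. In 69 genes every UN library was at 10 TPM or more and every SN library under 1 TPM, and the median of their means was 32.6 TPM in UN and 0.228 TPM in SN cells. The converse held for 1 gene, Rn7s2, a gene of the multicopy 7SL RNA outside the rule for named genes, at 0 in all UN libraries and at 42.4, 136 and 151 TPM in SN cells, which was not called (limma adjusted p = 0.0740). Without UN1, 104 genes met the first definition and 4 the second. Among the 69 were Igfbp2, an IGF-binding protein, at 83.9, 89.4 and 75.6 TPM against 0.570, 0.848 and 0.503 TPM, and Has2, a hyaluronan synthase, at 27.0, 42.8 and 41.6 TPM against 0.0585, 0.0363 and 0.337 TPM. Zic1, a transcription factor of neural development, and Nes, which encodes nestin, were among them too. In SH cells 51 of the 69 were under 1 TPM in all 3 libraries and 0 were at 10 TPM or more in all 3.

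The 69 held 13 X-linked genes. X-linked genes were 3.44% of those tested and 6.43% of the genes that fell, and 14.1% of the 651 X-linked genes fell, against 7.57% of all genes. Several lay in a stretch that holds the Armcx and Bex families (chrX:134686519-136711478 in GRCm38), of which 16 genes were read after their values had been seen. Of these, 8 fell and 0 rose. Armcx2 and Armcx3, armadillo-repeat proteins of mitochondria, were at 43.0, 58.2 and 55.4 TPM and at 37.9, 56.3 and 58.0 TPM in UN cells, and at 0.357, 0.229 and 0.439 TPM and at 0.169, 0.170 and 0.406 TPM in SN cells. Bhlhb9, further along, fell by 4.68 ± 0.245 (limma adjusted p = 1.04e-07), and Bex4 by 4.30. Other genes of the stretch were not called. Armcx5 averaged 7.17 and 7.07 TPM, Wbp5 498 and 459 TPM, Ngfrap1 598 and 612 TPM, and Tceal8 195 and 188 TPM. Cxx1a and Cxx1b, a pair of near-identical retrotransposon-derived genes elsewhere on the X, were at means of 55.5 and 51.6 TPM in UN and at 0.354 and 0.0419 TPM in SN cells.

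Whole chromosomes differed in their medians. Over 13236 genes with a mean of at least 1 TPM, the median log2 difference was -0.07, and 8 of 20 chromosomes had medians more than 0.2 from it. Chromosomes 18, 16 and 10 were highest, at 0.47, 0.45 and 0.35, and chromosome 19 was at 0.17. Chromosomes 4, 12, 14 and X were lowest, at -0.43, -0.37, -0.36 and -0.28. The 3 SN libraries, each against the mean of the UN libraries, lay between 0.44 and 0.51 for chromosome 18 and between -0.44 and -0.42 for chromosome 4, so that they differed little from each other. On chromosome 4, 170 of 810 genes fell and 17 rose, whereas on chromosome 16, 14 of 392 fell and 42 rose. Copy number was not measured, and its part in these medians was not tested. Single leading genes could lie against the median of their chromosome. Lox fell by 6.89 on chromosome 18, Timp3 and Glipr1 by 6.72 and 6.04 on chromosome 10, and Lepr and Padi1 rose on chromosome 4. Within 1 Mb of the 15 genes that fell most, 458 neighbours were tested, of which 8.08% fell and 1.75% rose. The shares over all genes tested were 7.57% and 3.20%. Within 1 Mb of the 15 that rose most, 8.20% of 512 rose and 4.88% fell. Neighbours are counted once for each leading gene they lie near, so that family clusters count more than once. Of the 42 higher neighbours, Sprr2g and Sprr2k each had 6, Raet1d and Raet1e each 5, and Padi1 6. The 26 neighbours of mt-Nd3 were other genes of the mitochondrial genome.

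**Figure D4:**
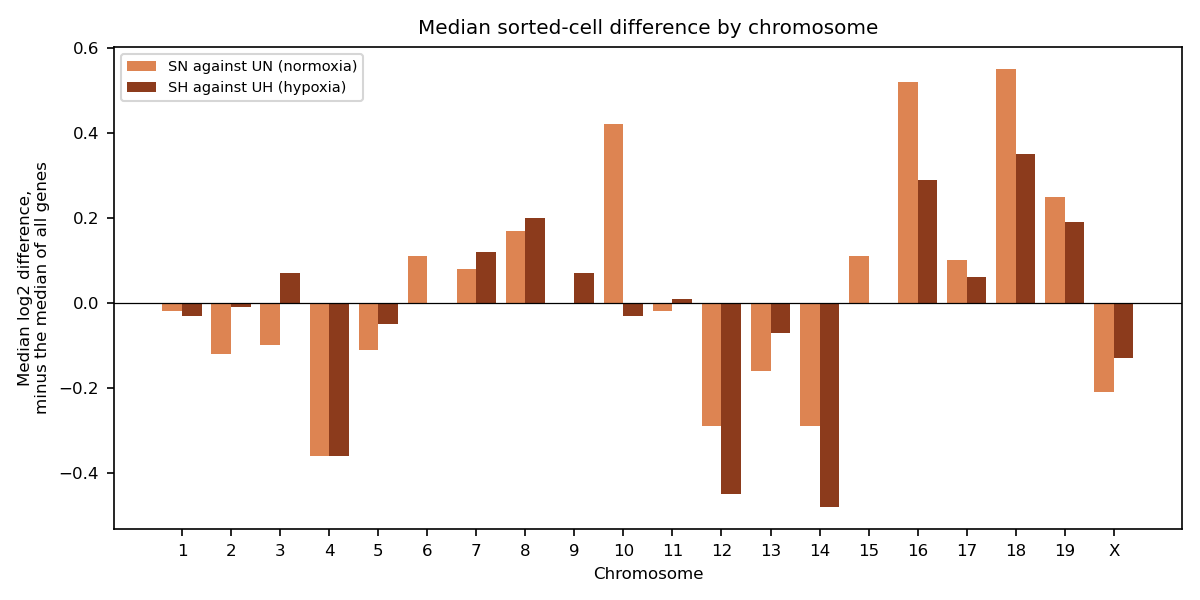
Median log2 difference per chromosome, minus the median of all genes, for sorted against unsorted cells in normoxia (SN against UN) and in hypoxia (SH against UH), over genes with a mean of at least 1 TPM. Chromosomes 16, 18 and 19 are high and 4, 12 and 14 low in both, while chromosome 10 stands at 0.42 in normoxia and -0.03 in hypoxia.

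The same contrast was read in the hypoxic libraries, which share no library with it. SH cells are SN cells returned to 1% oxygen, so that they are not an independent sort. SH against UH gave 1447 higher (7.65%) and 1012 lower (5.35%) genes, with a median log2 difference of 0.17 over all genes. Of the 1431 genes lower in SN cells, 630 (44.0%) were also called lower in SH cells and 20 were called higher. These 630 were 62.3% of all genes called lower in hypoxia. Of the 606 higher genes, 290 (47.9%) were called higher again and 2 lower, and these 290 are out of the 1447 called higher in hypoxia. Sign alone was shared by 87.6% of the lower and 91.6% of the higher genes. The collagen maturation list kept all of its losses, with 10 of 10 called lower in both, and the matrix list 12 of 15. In hypoxia Serpinh1 averaged 385 TPM in UH and 0.640 TPM in SH cells, and Col3a1 1747 and 1.30 TPM.

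Not every difference was kept. The effect of the sort differed between hypoxia and normoxia for 1939 genes (10.3%) by the contrast of the contrasts, whose median over all genes was 0.25 and became 0.02 with median-of-ratios scaling. Genes chosen for a large difference in normoxia enter this contrast with that difference subtracted, which by itself favours values toward 0, so that no count over the called genes is read from it. Ranbp3l averaged 0.295 TPM in UN and 15.7 TPM in SN cells, but 0.126 and 0.324 TPM in UH and SH cells. S100a4 averaged 1265 and 1592 TPM in UH and SH cells and Ptgds 26.5 and 16.0 TPM, and neither was called there. Cdh1 and Hnf4a, lower in SN cells, were at 1.48 and 0.294 TPM and at 0.161 and 0.108 TPM in hypoxia, where the unsorted cells had little of either. Of the 30 cell division genes 19 were higher and 0 lower in SH than in UH cells, with a median log2 difference of 1.13 against 0.13 in normoxia.

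**Figure D5:**
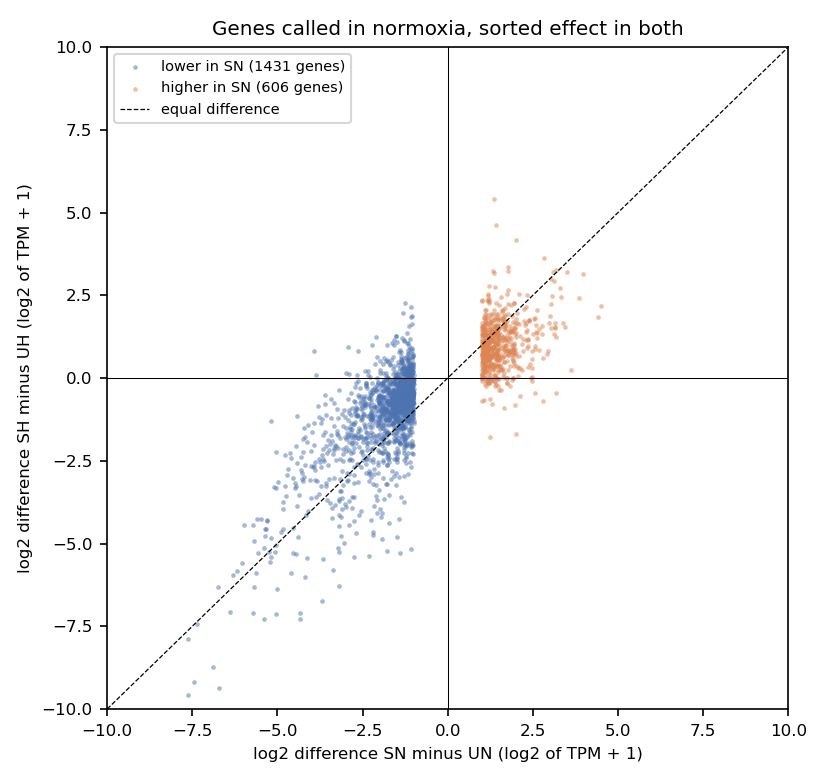
Log2 difference of SH minus UH (y axis) against SN minus UN (x axis) for the 2037 genes called in normoxia, each a point, with a dashed line at equal differences. Most of the 1431 lower genes lie below 0 and most of the 606 higher genes above 0 on the y axis.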

How the data were processed

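RNA of BN1 cells carrying Tie2-EGFP was sequenced in 12 libraries (Illumina Stranded mRNA Prep, paired-end). The authors ran nf-core/rnaseq 3.12.0 with Salmon against mm10, per the submitters' notes, and deposited TPM per gene, which are corrected for length and sum to the same total in each library. The annotation is not given in the sources used here, and depth is unknown. Groups and replicate numbers were taken from the sample titles. The titles call the cells of all 12 libraries EGFP+, the unsorted ones included, and separate the groups by sorting and oxygen only. Condition details came from the study's methods. The number of per-sample columns left unused was 0.

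Log2(TPM + 1) was modelled with limma 3.58.1 in R 4.3.3 (1 mean per group, 12 libraries, trend, Benjamini-Hochberg), for genes with a mean of at least 0.1 TPM. Low genes have understated folds on this scale. Tables and plots used Python 3.11.15, pandas 2.3.3, scipy 1.17.1 and matplotlib 3.10.9. Positions were taken from GENCODE M21 (GRCm38), where 98.8% of identifiers were found. Data were simulated for SN against UN over 18909 genes. Of 100 genes changed by 1.5 (log2) 94 were recovered, and of 100 changed by 3, 98, with 2 false calls. The changed genes were drawn only from those above 2 on the log2(TPM + 1) scale in UN cells, so that recovery of lower genes is not shown. Noise was normal and independent, and as many genes rose as fell, unlike in the data.

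The genes compared and the 29 lists were chosen with earlier results of these data known. Named genes were Tek, Cdkn2a, Ctnnb1, Nfe2l2 and Yap1, the 15 lowest and 15 highest called, non-overlapping genes that are not predicted models, the 4 largest called changes per list, and endothelial genes at 1 TPM or more. Genes named beyond this rule, and the nephric, cornified envelope and X-linked lists, were chosen after their values were seen.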

Additional observations from a re-analysis of the deposited data

Results flagged for a closer look

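In 47 of the 125 named genes the effect of the sort differed between hypoxia and normoxia by the contrast (SH - UH) - (SN - UN) in limma, and each value below is that difference on the log2 scale. Over all genes tested its median was 0.25. With median-of-ratios scaling 40 of the 47 remained called, and Cdkn2a, Dsg2, Onecut2, S1pr1, Abcc3, Aldh3a1 and Fgfr4 did not. With quantile normalization 40 remained, and Cnn1, Dsg2, Onecut2, Cfb, S1pr1, Abcc3 and Fgfr4 did not. With a pseudocount of 0.1, 37 remained, and Lox, Fndc1, Mcpt8, Loxl2, Crb3, Ngfr, Onecut2, Cfb, Ces1d and Gsta2 did not. Most of the named genes were chosen for a large difference in normoxia, which this contrast subtracts, so that values toward 0 are favoured by the choice.

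Among genes lower in SN cells, 17 had positive values, so that the fall on the log2(TPM + 1) scale was smaller in hypoxia. Liver and epithelial genes were Cdh1 (1.74), Krt8 (1.69), Dsg2 (1.12), Hnf4a (1.79), Onecut2 (1.20), Cfb (1.32), Apob (1.79), Tm4sf4 (2.21) and Abcc3 (1.45). The others were Cnn1 (1.54), Cdkn2a (1.23), S1pr1 (1.38), Ltbp4 (2.04), Tgfb3 (2.12), Nid2 (2.33), Ror2 (1.85) and Fgfr4 (1.72). A further 10 had negative values. These were the lysyl oxidases Lox (-1.84) and Loxl2 (-2.92), the matrix and protease genes Timp3 (-2.63), Fndc1 (-1.40), Mmp3 (-2.14), Nid1 (-2.07) and Itga11 (-2.65), and Ctgf (-2.83), Mt2 (-1.55) and Slc16a3 (-3.89). Lox averaged 134 and 0.137 TPM in UN and SN cells and 735 and 0.694 TPM in UH and SH cells, values near 0 at which the pseudocount sets the size of the fall.

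Among genes higher in SN cells, 17 had negative values. They were Slco4a1 (-2.33), Sprr2g (-2.58), Sprr2k (-1.89), Ranbp3l (-3.39), Gstp2 (-1.93), Gsta2 (-1.23), Padi1 (-1.64), Blnk (-1.59) and Mcpt8 (-1.80), the junction genes Crb3 (-1.09) and Cldn1 (-1.18), and Ngfr (-1.09), Ces1d (-1.29), Prom1 (-1.65), Ankrd1 (-1.45), Grem1 (-2.56) and Ptgds (-3.50). Aldh3a1 had a positive value (1.57). Of endothelial genes not called in normoxia, Esam (1.36) was higher and Flt1 (-1.72) lower in SH than in UH cells.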

How the results depend on the processing

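A pseudocount of 0.1 gave 990 higher and 2402 lower genes for SN against UN, and 2810 higher and 1550 lower for SH against UH. For the difference between the oxygen conditions, 901 higher and 782 lower genes were called with median-of-ratios scaling and 774 and 744 with quantile normalization, against 1527 and 412. At limits of 5 and 0.5 TPM, 96 genes were off and 2 were on in sorted cells. Leaving out 1 library at a time gave 536 to 744 higher and 1335 to 1714 lower genes, 69 to 104 genes off and 1 to 4 on (4 without UN1, 3 without SN3 and 2 without UN2). The count of genes off was 104 without UN1, which was the only library whose loss moved it by more than 1.5 times. Of the 115 named genes that were called, 104 kept their call in every setting tried and none changed direction. The other 11, among them mt-Nd3, mt-Co2, Dkk3, Cbr3, Plvap, Krt7 and Trp53, lost it in at least 1 setting, and the cause was not tested. Signs turned for Yap1 with median-of-ratios scaling (0.04), Ets1 without SN1 or UN1 (-0.04, with a range of -0.04 to 0.14 over single libraries left out) and Fli1 without UN3 (-0.01), none of them called. With the replicate number as a block, 605 genes were higher and 1428 lower, and the pairing was not used because residuals of same-numbered SN and UN libraries correlated at 0.0184, 0.141 and -0.00651. Without counts, the error of low values cannot be stated. The shares of higher genes under each scaling, the single libraries left out for genes on and off, and all settings for the difference between oxygen conditions were chosen after seeing the data.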
